A study of Mus musculus with 3 samples.

Results

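The 9 genes described here mark monocytes and macrophages: Lyz1, Lyz2, Ly6c2, Ccr2, Cx3cr1, Cd14, Itgam, Emr1 (the older symbol of Adgre1) and Fcgr1. They were taken by symbol from a table of 28074 gene symbols, and all 9 were found. The samples were 3 acute myeloid leukemias (AML), taken from the spleens of 3 separate mice that had become moribund. All 3 mice formed 1 group, with miR-196b deleted on both chromosomes (miR-196b-/-), 2 Flt3-ITD alleles (an internal tandem duplication that keeps the Flt3 receptor active), floxed Dnmt3a and Mx1Cre. The genotype field gives the Dnmt3a alleles as fl/fl and the titles as +/-. Mx1Cre is a recombinase under the interferon-inducible Mx1 promoter, which is active in blood cells and in other tissues, so the deletion is not restricted to the leukemic cells. Red cells were lysed, cells bearing c-Kit were enriched with magnetic beads, and their RNA was sequenced. The labels give neither the ages of the mice nor the purity of the enriched cells. The numbers 1, 2 and 3 only name a mouse.

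Monocytes arise in the bone marrow from granulocyte and monocyte progenitors, circulate in blood and can become macrophages or dendritic cells in tissues. In the mouse, classical monocytes carry much Ly6C and Ccr2 and little Cx3cr1, while the patrolling kind carries the reverse. The transcription factor PU.1, encoded by Spi1, sets up much of the program. Several of these genes are not restricted to monocytes: neutrophils also express Lyz2 and Itgam, and dendritic cells can express Cx3cr1 and Ccr2. In AML, such genes are read as signs of how far the leukemic cells have matured along the monocytic path.

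Values are TPM, transcript abundances scaled to a fixed total per library, which are corrected for transcript length, so levels of different genes can be compared within a mouse. Since there was only 1 group, nothing could be tested between groups, and the error given is the SD over the 3 mice. Sequencing depth is unknown beyond the 30000000 reads planned per library. A gene was counted as expressed at a mean TPM of at least 1, which 15181 genes reached. Of the 9 genes 8 reached it, and Fcgr1, at a mean of 0.801 TPM, did not. Kit, the gene of the receptor used for enrichment, stood at 139, 149 and 133 TPM in mice 1, 2 and 3, and so was present in every library. Flt3 stood at 146, 157 and 106 TPM, and Dnmt3a at 52.2, 64.9 and 54.6 TPM. Values summed per gene say nothing of which allele the RNA came from, and the deletion of miR-196b was not checked here.

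The 9 genes fell into 3 abundant transcripts, 2 at intermediate level and 4 at low level, over a range from 618 to 0.801 TPM in the means. Lyz2, Ly6c2 and Ccr2 held the first 3 ranks in every mouse, but in a different order in each. Itgam ranked 4 and Emr1 ranked 5 of the 9 in every mouse. The range of Lyz2 over mice spanned that of Ly6c2, that of Ly6c2 overlapped Ccr2, and that of Itgam overlapped Emr1. Cx3cr1, Cd14 and Lyz1 followed with overlapping ranges, and Fcgr1 was the lowest in each mouse. Among all expressed genes, the means of Lyz2, Ly6c2 and Ccr2 stood at percentiles 98.7, 97.8 and 96.2, Itgam and Emr1 at 66.1 and 51.8, and Cx3cr1, Cd14 and Lyz1 at 28.9, 25.7 and 24.3.

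**Figure D1:**
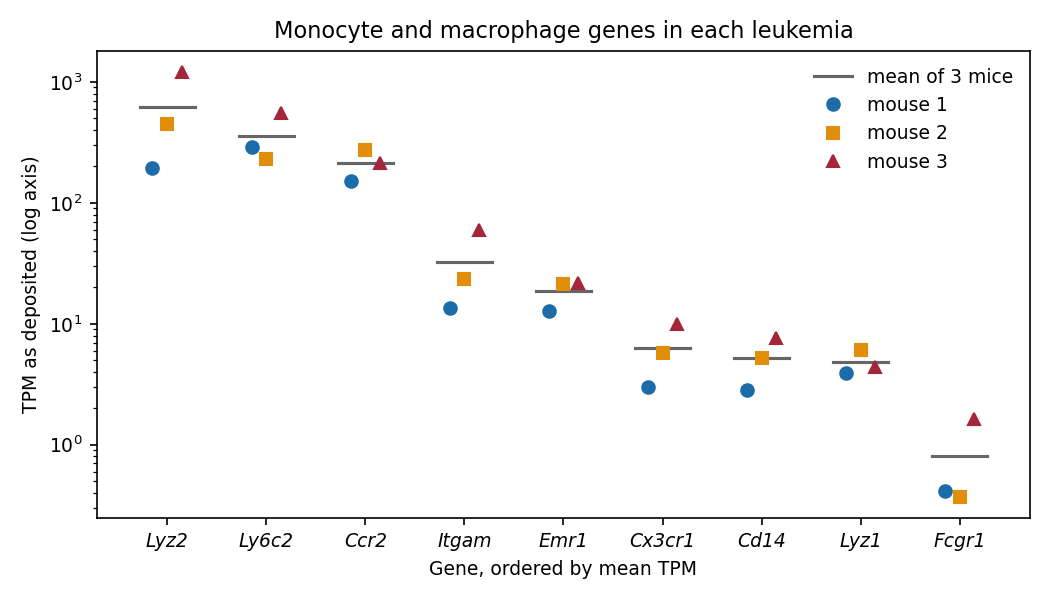
TPM of each of the 9 genes (y axis, log scale) in mice 1, 2 and 3, with a grey line at the mean of the 3 mice. The genes run from Lyz2 at a mean of 618 TPM to Fcgr1 at 0.801 TPM. Of the 8 expressed genes, 6 have their highest value in mouse 3, against 20.3% of all expressed genes. Fcgr1, not counted as expressed, is also highest in mouse 3.

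The lysozyme genes Lyz1 and Lyz2 encode enzymes that cleave bacterial cell walls. Lyz2 is the lysozyme of myeloid cells, and Lyz1 is best known from Paneth cells of the gut. They are neighbours on chromosome 10 of GRCm38 (mm10), both on the minus strand and protein coding: Lyz2 at chr10:117277331-117282321 and Lyz1 at chr10:117287797-117292868. The sequences upstream of them are shown here because the 2 copies are alike there while their levels are far apart. Each stretch covers 200 bases, from 250 to 51 bases before the RefSeq start on GRCm38.p6, at chr10:117292919-117293118 for Lyz1 and chr10:117282323-117282522 for Lyz2. Capitals mark the reverse complement of AGGAAGT, a form of the site that PU.1 and other Ets factors bind, which was searched on both strands as the only motif.
Lyz1: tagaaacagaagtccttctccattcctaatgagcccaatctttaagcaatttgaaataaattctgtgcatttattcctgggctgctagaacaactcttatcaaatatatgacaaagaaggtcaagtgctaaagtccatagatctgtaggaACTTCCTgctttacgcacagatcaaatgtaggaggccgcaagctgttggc
Lyz2: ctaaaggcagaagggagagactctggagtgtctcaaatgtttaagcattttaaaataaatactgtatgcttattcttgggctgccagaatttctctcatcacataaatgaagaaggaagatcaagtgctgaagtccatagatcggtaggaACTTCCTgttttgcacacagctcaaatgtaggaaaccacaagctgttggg

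In a global alignment of these stretches, 150 of 202 columns (74.3%) were identical and 4 held a gap. The 50 bases next to the RefSeq start were identical in both genes. For Lyz2 the 2 annotations differ: its GENCODE gene reaches to 117282321, so most of these 50 bases lie within it. The match began 100 bases before the RefSeq start in each. AGGAAGT was found within 250 bases before a start of 4 of the 7 genes with an entry in the RefSeq table that were searched (Lyz1, Lyz2, Ly6c2 and Fcgr1), and of 2377 of the 27025 genes in that table (8.80%). Ccr2, Cx3cr1 and Itgam held no match in this window, which for Ccr2 and Cx3cr1 lay mostly or wholly within the GENCODE gene. The other 2 matches are shown with 15 bases on either side, Ly6c2 from chr15:75112057-75112093 and Fcgr1 from chr3:96294009-96294045, both read along the minus strand. A match is a sequence description, and binding was not measured.
Ly6c2: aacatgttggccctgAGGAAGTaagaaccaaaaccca
Fcgr1: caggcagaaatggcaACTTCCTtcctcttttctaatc

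Lyz2 stood at 194, 450 and 1209 TPM in mice 1, 2 and 3, a mean of 618 ± 528 TPM (SD, n = 3). Each mouse was more than 2-fold away from the next. Mouse 3 was 6.24 times as high as mouse 1 on the TPM scale, the widest ratio of the 9 genes. On the log2(TPM + 1) scale the SD between mice was 1.32, wider than that of 99.3% of expressed genes. In bulk RNA, a smaller share of cells that express a gene and less of its RNA per cell cannot be told apart, and this holds for every gene below.

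Lyz1 stood at 3.93, 6.07 and 4.37 TPM (4.79 ± 1.13, SD, n = 3), and its highest value was in mouse 2, not mouse 3. Lyz2 was 49.3, 74.1 and 277 times as abundant as Lyz1 in mice 1, 2 and 3. Lyz1 made up 1.99%, 1.33% and 0.360% of the sum of both, so its share was lowest where Lyz2 was highest. The longest annotated transcripts of the genes were 95.8% identical over 1264 aligned columns in GENCODE M21, and 34.2% of the 31-base words of Lyz1 also occurred in Lyz2. How the authors' counting split reads from these shared parts was not tested, and the value of Lyz1 is uncertain for that reason.

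Ly6c2 encodes a surface protein anchored by a lipid, part of the Ly6C antigen that marks classical monocytes (GRCm38 chr15:75108158-75111970, minus strand). It stood at 291, 229 and 559 TPM (360 ± 175, SD, n = 3). Mouse 3 was highest, at 2.44 times mouse 2, and mice 1 and 2 were close to each other, with mouse 2 the lowest. This is the only 1 of the 8 expressed genes that was lowest in mouse 2. Ly6c1, its neighbour and close paralog, was listed at 0 in all 3 mice. The longest transcripts of Ly6c2 and Ly6c1, of 2680 and 844 nt, were 98.3% identical over a stretch of 595 aligned columns. Of the 31-base words of Ly6c2, 23.8% occurred in other genes and 21.4% in Ly6c1, so the split between the copies is uncertain.

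Among the other 8 genes of the Ly6 family looked at, Ly6e was abundant and even, at 487, 524 and 549 TPM. Ly6a, known as Sca-1 on stem cells, stood at 8.85, 8.96 and 17.3 TPM. Ly6g, the defining surface gene of neutrophils, had the widest spread of the family, at 0.429, 6.77 and 28.5 TPM. Ly6f (5.49, 6.78 and 19.5 TPM), Ly6i (1.70, 0.978 and 4.24 TPM) and Ly6d (0, 0.837 and 2.21 TPM) were highest in mouse 3. Ly6h stood at 3.22, 5.36 and 3.07 TPM. Ly6k was at 2.05, 0.116 and 0.292 TPM.

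Itgam encodes CD11b, the alpha chain that pairs with the beta2 chain Itgb2 to form the complement receptor Mac-1 (GRCm38 chr7:128062640-128118491, plus strand). It stood at 13.4, 23.6 and 60.0 TPM (32.4 ± 24.5, SD, n = 3). Mouse 3 was 4.47 times as high as mouse 1 and 2.54 times as high as mouse 2. The SD of 1.05 on the log2(TPM + 1) scale was wider than that of 98.5% of expressed genes. In GENCODE M21, 67.2% of the 31-base words of Itgam also occurred in the gene model Gm49368, and whether the authors' counting split reads between them was not tested.

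The other beta2 integrin chains had another order of mice. Itgb2 stood at 134, 217 and 160 TPM, Itgal (the alpha chain of LFA-1) at 113, 143 and 105 TPM and Itgax (CD11c, of dendritic cells) at 68.6, 155 and 104 TPM, each with its highest value in mouse 2. Itgad was listed at 0 in all 3 mice. Itgb2 was therefore 9.95, 9.19 and 2.66 times as abundant as Itgam in mice 1, 2 and 3, and Itgal 8.40, 6.04 and 1.74 times. Of the other genes on this list, Icam1, a ligand of these integrins, stood at 20.7, 45.1 and 32.1 TPM, while C3, the complement protein whose fragment Mac-1 binds, stood at 23.4, 33.8 and 98.5 TPM, highest in mouse 3 as Itgam was.

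**Figure D2:**
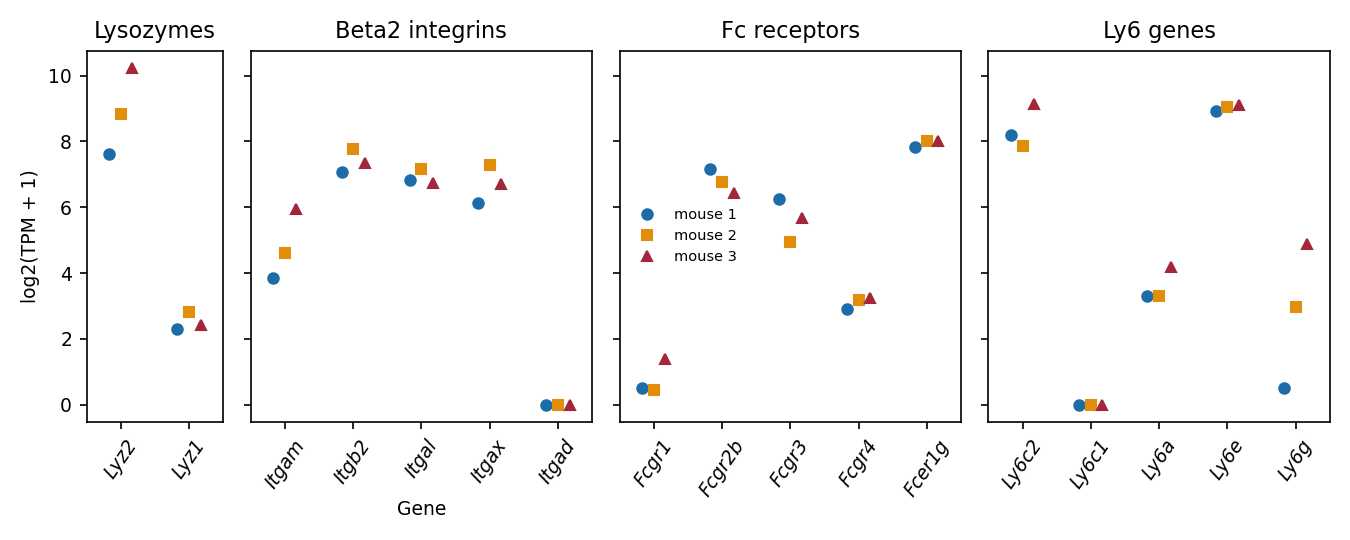
log2(TPM + 1) (y axis) of lysozymes, beta2 integrin subunits, Fc receptors and Ly6 genes in mice 1, 2 and 3. Lyz2, Itgam, Fcgr1 and Ly6c2 have their highest point in mouse 3, while Itgb2, Itgal and Itgax have it in mouse 2 and Fcgr2b and Fcgr3 in mouse 1.

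Emr1 encodes F4/80, an adhesion receptor of the G protein-coupled kind that defines many tissue macrophages (GRCm38 chr17:57358691-57483527, plus strand). It stood at 12.7, 21.5 and 21.6 TPM (18.6 ± 5.10, SD, n = 3). Mice 2 and 3 differed by a factor of 1.01 on the TPM scale, and mouse 1 was lower than both. Its paralog Emr4 stood at 0.915, 1.58 and 2.31 TPM.

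The chemokine receptors differed in level and in order. Ccr2, which draws classical monocytes out of the marrow (GRCm38 chr9:124101950-124113557, plus strand), stood at 150, 271 and 215 TPM (212 ± 60.4, SD, n = 3), highest in mouse 2 and lowest in mouse 1. Cx3cr1, the fractalkine receptor of patrolling monocytes and many macrophages (GRCm38 chr9:119901616-120069879, minus strand), stood at 3.01, 5.74 and 10.0 TPM (6.26 ± 3.53, SD, n = 3), highest in mouse 3. Ccr2 was 49.9, 47.2 and 21.4 times as abundant as Cx3cr1 in mice 1, 2 and 3, and Ly6c2 was 96.6, 39.9 and 55.8 times as abundant. Other genes of patrolling monocytes stood on both sides of Cx3cr1. Spn, which encodes CD43, stood at 157, 105 and 122 TPM. Treml4 and Nr4a1, given with the other monocyte genes, were also above Cx3cr1 in each mouse. Cd300e, given there too, was below Cx3cr1 in each mouse, as was Ace of the same list, at 0.607, 0.377 and 2.07 TPM.

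Of the Ccr2 ligands, Ccl8 and Ccl12 were listed at 0 in all 3 mice, Ccl7 stood at 0.108, 0.456 and 0 TPM and Ccl2 at 1.61, 4.39 and 4.28 TPM. Cx3cl1, the ligand of Cx3cr1, stood at 1.15, 2.49 and 2.15 TPM. Among these 5 ligands, 2 (Ccl2 and Cx3cl1) were expressed, and both were lowest in mouse 1, against 24.4% of all expressed genes.

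Cd14 is the lipid-anchored co-receptor that hands lipopolysaccharide to Tlr4. It stood at 2.81, 5.24 and 7.57 TPM (5.21 ± 2.38, SD, n = 3), with mouse 3 at 2.70 times mouse 1. Tlr4 itself was even, at 10.6, 11.4 and 11.2 TPM, and stood above Cd14 in each mouse, by a factor of 3.77, 2.17 and 1.48. Ly96, which encodes the MD-2 chain bound to Tlr4, stood at 5.19, 6.74 and 8.93 TPM, and Tlr2 at 12.0, 16.7 and 15.5 TPM. The adaptor Myd88 (69.8, 66.7 and 48.7 TPM) and the kinase Irak1 (130, 99.7 and 95.1 TPM) had their lowest values in mouse 3. The kinase Irak4 stood at 33.9, 38.2 and 32.4 TPM and the adaptor Ticam1 at 15.1, 24.3 and 18.2 TPM. Of the 10 genes found for this pathway, 1 (Lbp, at 27.2, 22.5 and 50.2 TPM) differed at least 2-fold between its highest and lowest mouse. The share over all expressed genes was 8.57%. The median SD of the 10 was 0.24.

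Fcgr1 encodes CD64, the high-affinity receptor for IgG (GRCm38 chr3:96282909-96293969, minus strand). It stood at 0.411, 0.372 and 1.62 TPM (0.801 ± 0.709, SD, n = 3), so only mouse 3 exceeded 1 TPM. The lower-affinity receptors were far more abundant: Fcgr3 stood at 74.9, 29.5 and 50.4 TPM and the inhibitory Fcgr2b at 143, 108 and 86.0 TPM, both highest in mouse 1. Fcgr3 was 182, 79.2 and 31.1 times as abundant as Fcgr1. These ratios are uncertain, because the counting error of the low Fcgr1 values could not be estimated. Fcgr4 stood at 6.57, 8.10 and 8.47 TPM. The shared signalling chain Fcer1g stood at 229, 257 and 259 TPM and the kinase Syk at 71.3, 81.8 and 81.9 TPM. Among these 5 other Fc receptor genes only Fcgr3 differed at least 2-fold, against 8.57% of all expressed genes.

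As a list, the 9 genes had a median of 3.78, 4.49 and 4.50 on the log2(TPM + 1) scale in mice 1, 2 and 3 (mean 4.26 ± 0.41, SD, n = 3). Of the 8 expressed genes, 5 (Lyz2, Ly6c2, Itgam, Cx3cr1 and Cd14) differed at least 2-fold between the highest and the lowest mouse on that scale, against 8.57% of all expressed genes. The median SD of the 8 genes was 0.63, against 0.21 over all expressed genes. Without mouse 3, 1 gene (Lyz2) of 8 differed at least 2-fold, against 4.67% of all expressed genes, and without mouse 1 the number was 3, against 2.96%. Without Lyz2 and Itgam, a choice made after seeing the data, it was 3 of 6, against 8.57%. Each of these folds sets 1 mouse against another, so it has no replicate check.

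Mouse 3 carried the highest value for 6 of the 8 expressed genes, against 20.3% of all expressed genes, and mouse 1 the lowest value for 7, against 24.4%. Scaling the libraries to a common upper quartile shifted mice 1, 2 and 3 by -0.08, 0.01 and 0.06 log2 units, after which the counts were again 6 and 7, against 30.4% and 36% of all expressed genes. Mouse 3 was at least 2-fold higher than mouse 1 for 4 of the 8 (Lyz2, Itgam, Cx3cr1 and Cd14), against 2.54% of all expressed genes. It was at least 2-fold higher than mouse 2 for 3 (Lyz2, Ly6c2 and Itgam), against 1.59%. Mouse 2 was at least 2-fold higher than mouse 1 for 1 (Lyz2), against 2.55%. None of the 8 was at least 2-fold lower in any of these 3 comparisons, against 431, 198 and 317 of the 15181 expressed genes, in that order. With so few genes lower among all expressed genes, this does not set the 8 apart. The order mouse 3, mouse 2, mouse 1 was shared by Lyz2, Itgam, Emr1, Cx3cr1 and Cd14, although Emr1 hardly separated mice 2 and 3. Ccr2 and Lyz1 ran mouse 2, mouse 3, mouse 1. The shares of all expressed genes with these full orders were not computed, so the orders are a description only.

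**Figure D3:**
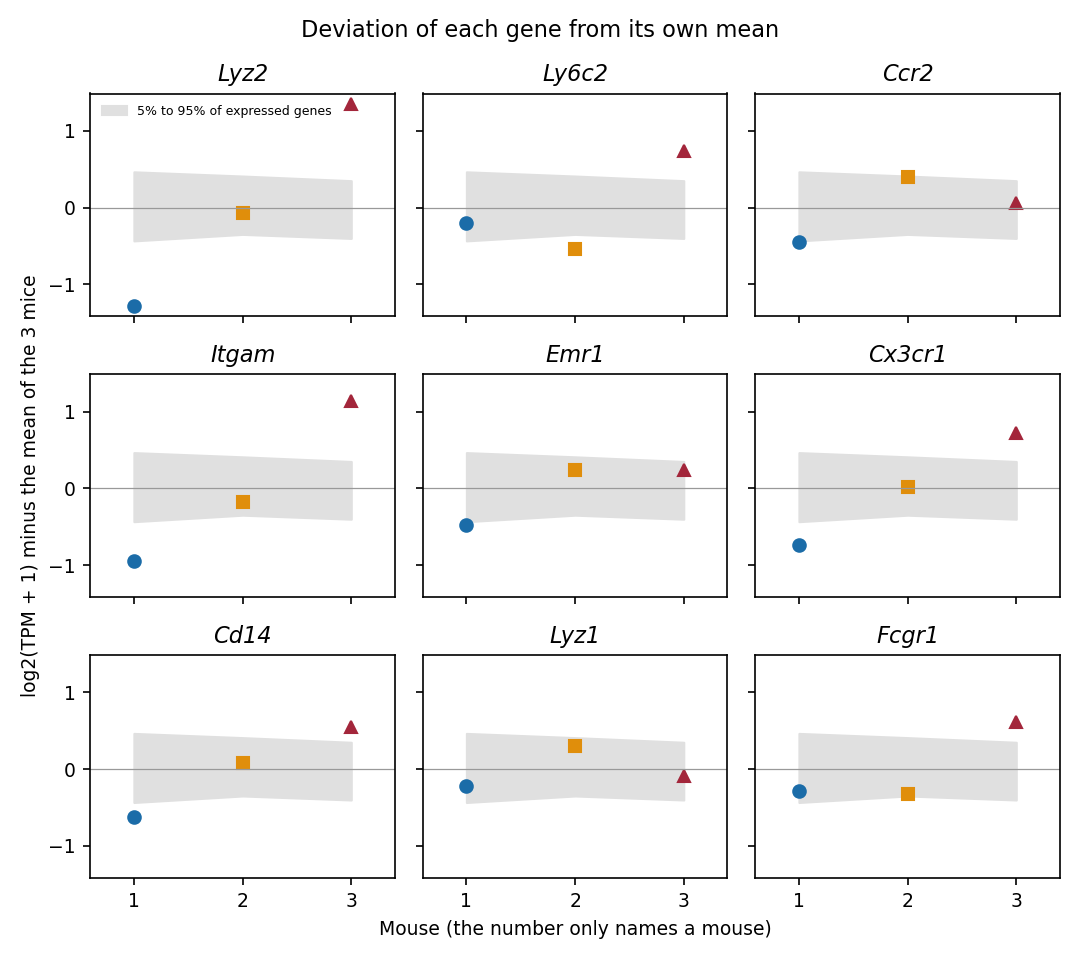
Deviation of log2(TPM + 1) from the gene's own mean over the 3 mice (y axis) in mice 1, 2 and 3 (x axis), 1 panel for each of the 9 genes; the grey band spans the 5% to 95% range of all expressed genes in each mouse. Lyz2 and Itgam leave the band furthest, low in mouse 1 and high in mouse 3, while Ccr2, Emr1 and Lyz1 lie in or near it.

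The genes whose deviations over the 3 mice were nearest to those of Lyz2 among expressed genes were G0s2, Lcn2, Pf4, Itgb2l and Cybb. Their root mean square differences from Lyz2 were 0.02, 0.10, 0.10, 0.11 and 0.16 log2 units, over only 3 mice. G0s2, an inhibitor of lipolysis, stood at 1.73, 5.12 and 15.5 TPM. Lcn2, an iron-scavenging protein of neutrophil granules, stood at 188, 373 and 1016 TPM. Pf4, a platelet chemokine, stood at 6.73, 20.4 and 51.0 TPM, Itgb2l at 5.11, 16.1 and 39.6 TPM, and Cybb, the oxidase subunit of phagocytes, at 33.3, 80.2 and 170 TPM. Of the other expressed monocyte and macrophage genes, Itgam ranked 23 in nearness to Lyz2, Cx3cr1 108, Cd14 192, Ly6c2 479, Emr1 625, Ccr2 1476 and Lyz1 4161. Among the neutrophil genes described below, Lcn2 ranked 2, Ngp 7, S100a8 9, S100a9 29, Camp 67 and Ltf 69. Further off were Mmp9 at 113, Retnlg at 131, Mmp8 at 134 and Ly6g at 367. Elane ranked 813, Mpo 932, Prtn3 1510, Cxcr2 2838 and Ctsg 9125.

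A list of 18 other monocyte genes, of which 17 were expressed, showed which further parts of the program were present. The most abundant were Irf8, a transcription factor of monocyte and dendritic cell progenitors, at 716, 1256 and 775 TPM, Mpeg1, which encodes the pore-forming perforin-2, at 469, 955 and 699 TPM, and Chi3l3, a chitinase-like secreted protein, at 139, 222 and 610 TPM. Csf1r, the receptor for the macrophage growth factor, stood at 8.35, 15.6 and 24.8 TPM. Of the 17, 10 differed at least 2-fold between their highest and lowest mouse, against 8.57% of all expressed genes, and the median SD was 0.56. Mouse 3 held the highest value of 8, against 20.3%, and mouse 2 of 7, against 31.1%. After upper-quartile scaling, 10 were highest in mouse 3, against 30.4%, and 5 in mouse 2, against 33.9%.

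Ms4a4c (5.64, 17.4 and 28.7 TPM) and Treml4 (12.8, 51.8 and 50.6 TPM) were among the widest of these genes and were lowest in mouse 1. Fn1, fibronectin, was as wide, at 6.20, 1.34 and 9.29 TPM, but lowest in mouse 2, as were F13a1 (9.79, 6.85 and 18.9 TPM) and Ly6c2. Klf4, a factor needed for monocyte formation, stood at 89.0, 164 and 79.4 TPM, and Nr4a1, needed for patrolling monocytes, at 34.8, 109 and 65.6 TPM, both highest in mouse 2 as Ccr2 was. Cd300e, another gene of patrolling monocytes, stood at 0.208, 0.544 and 0.512 TPM. The summed TPM of the 18 genes was 2189, 3466 and 3005.

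Genes of resident macrophages were mostly low. Of 20 listed, 11 were expressed, and Marco and Clec4f, which mark marginal zone macrophages of the spleen and Kupffer cells of the liver, were listed at 0 in all 3 mice. The complement genes C1qa, C1qb and C1qc had their highest values in mouse 3, at 0.719, 1.36 and 1.32 TPM. Vsig4 stayed at or below 0.316 TPM. Cd68, an endosomal protein of all mononuclear phagocytes, was the exception in level, at 68.2, 124 and 107 TPM. The iron genes of red pulp macrophages were expressed, with Hmox1 at 12.6, 15.3 and 17.3 TPM, Slc40a1 at 3.64, 5.19 and 14.2 TPM and their factor Spic at 3.50, 3.93 and 3.02 TPM. Of the 11 expressed genes, Slc40a1, Timd4 (7.29, 5.45 and 1.59 TPM), Mrc1 (1.96, 5.34 and 7.34 TPM) and Vcam1 (2.35, 4.49 and 5.94 TPM) differed at least 2-fold. The share over all expressed genes was 8.57%. The median SD of the 11 was 0.23, near the 0.21 of all expressed genes.

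Most neutrophil genes, but not all, had the same order of mice as Lyz2 and Itgam. The share of all expressed genes with that order was not computed. The summed TPM of 15 such genes was 5094, 8360 and 25145 in mice 1, 2 and 3, a ratio of 4.94 between mice 3 and 1, against 672, 1013 and 2087 and a ratio of 3.11 for the 9 monocyte and macrophage genes. A few genes carry these sums: without S100a8 and S100a9 the first ratio was 3.03, and without Lyz2 the second was 1.84, both computed after seeing the data. All 15 were expressed, and none was at 0 in any mouse. Of them, 11 differed at least 2-fold, against 8.57% of all expressed genes. Under both scalings 13 were highest in mouse 3, against 20.3% as deposited and 30.4% after upper-quartile scaling. S100a8, the most abundant, stood at 1034, 2529 and 8646 TPM, which is 5.34, 5.62 and 7.15 times Lyz2. Camp, a peptide of late granules, stood at 122, 417 and 1480 TPM, and Ltf, lactoferrin, at 48.8, 193 and 580 TPM. S100a9 (616, 1719 and 6057 TPM) and Ngp (438, 1193 and 3639 TPM) had the same order of mice. The early granule genes Mpo (1081, 864 and 1632 TPM), Elane (410, 271 and 736 TPM), Prtn3 (485, 346 and 670 TPM) and Ctsg (618, 376 and 552 TPM) were lowest in mouse 2, as Ly6c2 was. Ctsg was highest in mouse 1, and Cxcr2 (25.6, 32.4 and 29.3 TPM) was highest in mouse 2. The part of neutrophils or their RNA in the values of Lyz2 and Itgam was not tested.

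Of 11 dendritic cell genes, 7 were highest in mouse 2, as Ccr2 was, against 31.1% of all expressed genes, and 9 were lowest in mouse 1, against 24.4%. Their summed TPM was 603, 1106 and 786. Clec9a, a receptor of the cross-presenting subset, stood at 184, 415 and 273 TPM, and Xcr1, of the same subset, at 26.1, 75.8 and 56.0 TPM. Cd209a, of the kind derived from monocytes, stood at 7.13, 22.4 and 30.0 TPM and was highest in mouse 3. Of the 11 genes, 5 differed at least 2-fold, against 8.57% of all expressed genes, and the median SD was 0.36. Their part in the values of Ccr2 and Cx3cr1 was not tested.

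Of 10 stem and progenitor genes, all expressed, 8 were highest in mouse 1, against 48.6% of all expressed genes, and 7 were after upper-quartile scaling, against 35.6%. Mouse 1 is where 7 of the 8 expressed monocyte and macrophage genes were lowest, against 24.4% of all expressed genes. A link between the 2 lists was not tested. Gata2, a stem cell factor, stood at 44.3, 16.8 and 16.9 TPM. It was the only 1 of the 10 to differ at least 2-fold, against 8.57% of all expressed genes. Myb, a factor of proliferating progenitors, stood at 193, 124 and 171 TPM, Cd34 at 202, 141 and 137 TPM, Hoxa9 at 34.2, 21.6 and 22.5 TPM and Meis1 at 56.3, 40.1 and 34.0 TPM. Their median difference between mice 3 and 1 was -0.49 on the log2(TPM + 1) scale, against 1.05 for the 8 monocyte and macrophage genes and -0.13 over all expressed genes. Flt3 is in both this list and that of dendritic cells, Itgax in 2 lists and Ly6g in 2 lists.

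**Figure D4:**
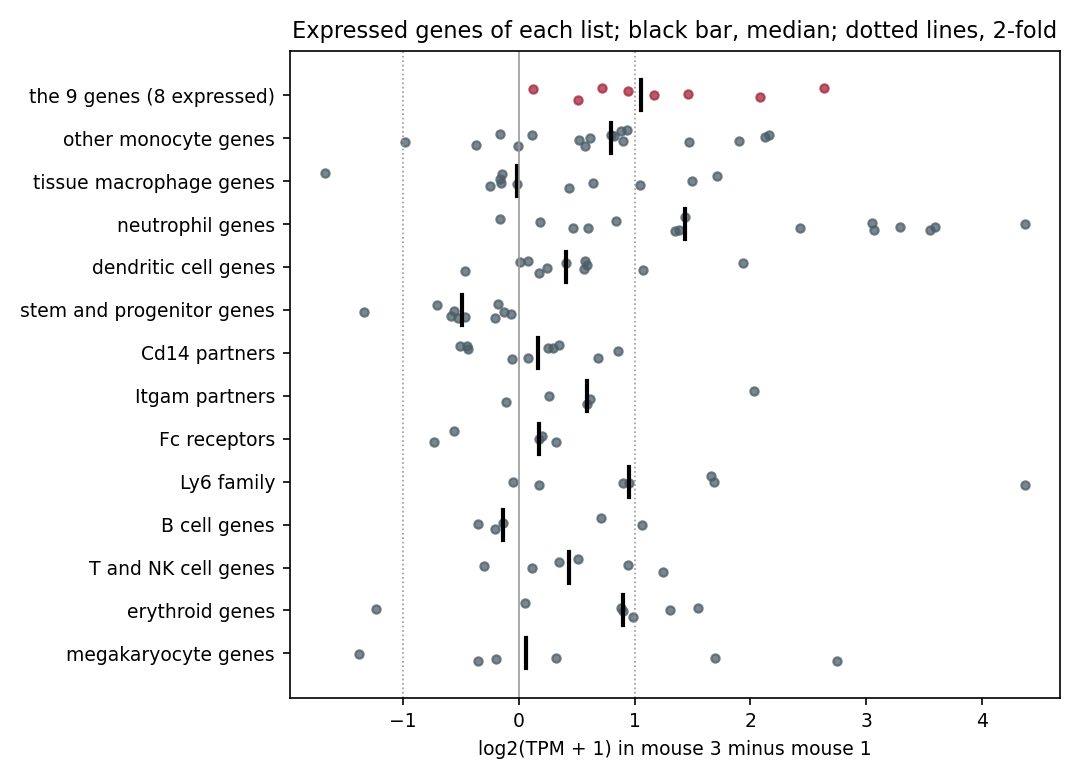
log2(TPM + 1) in mouse 3 minus mouse 1 (x axis) for the expressed genes of each list (rows), 1 point a gene, with a black bar at the median and dotted lines at a 2-fold difference. The 8 expressed monocyte and macrophage genes all lie above 0 with a median of 1.05, neutrophil genes have a median of 1.43 and stem and progenitor genes one of -0.49.

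Markers of lymphoid, erythroid and megakaryocytic cells were also read in each mouse. Of 7 B cell genes 5 were expressed, with a summed TPM of 18.6, 16.0 and 19.1, and Cd79b was the highest at 13.1, 8.94 and 10.1 TPM, while Cd79a, Ms4a1 and Ebf1 stayed at or below 2.26 TPM. Of 8 T and NK cell genes 6 were expressed, with sums of 16.0, 21.3 and 24.6 TPM, and Cd3e, a defining gene of T cells, stood at 0.317, 0.665 and 0.978 TPM. Cd3d reached 7.13 TPM in mouse 3, Cd8a 5.34 TPM in mouse 3 and Cd4 5.27 TPM in mouse 2, while Ncr1, Gzma and Cd3g were below Cd3d in each mouse. Erythroid genes (7 of 8 expressed) summed to 52.3, 32.5 and 89.9 TPM, and 7 of the 7 were lowest in mouse 2, against 33% of all expressed genes. Klf1, the erythroid transcription factor, stood at 9.41, 8.11 and 24.6 TPM, Alas2 at 12.3, 10.8 and 12.9 TPM, and the beta globins Hbb-b1 and Hbb-b2 at 4.15, 0.719 and 9.19 TPM and at 11.9, 2.50 and 4.51 TPM. Megakaryocyte genes (6 of 6 expressed) summed to 75.1, 48.5 and 92.3 TPM. Itga2b stood at 49.0, 15.5 and 18.2 TPM, Pf4 at the values given above, Gp9 at 8.32, 4.37 and 6.32 TPM and Ppbp at 1.11, 1.56 and 5.83 TPM, and the means of Itga2b and Pf4 exceeded that of Emr1. Among the expressed genes of the B cell, T and NK cell, erythroid and megakaryocyte lists, 1, 1, 5 and 3 differed at least 2-fold, in that order. The share over all expressed genes was 8.57%.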

How the data were processed

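RNA of 3 miR-196b-/- leukemias was measured by paired-end sequencing of 150 nt reads. The authors deposited 1 table of values per gene symbol; kallisto and mm10 are named in the submitters' processing notes, while version and annotation are not given in the sources used here. The name of the table calls the values log2 FPKM, but the deposited values were linear, never below 0, and summed to 929731, 927169 and 928490, so they were read as TPM. TPM keeps no depth, and no counting interval was computed. Of 28987 rows, 795 without a symbol and 27 with a date in its place were left out (between 0.734% and 0.787% of the column sums), and 90 symbols on several rows were summed. A further 3 per-sample columns, from samples of another series, were left aside.

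From log2(TPM + 1), for each gene the mean, the SD over mice and the highest and lowest mouse were computed, and counts were set beside those over all expressed genes. The calculation was tested on simulated data. Coordinates and shared 31-base words come from GENCODE M21 (GRCm38, the build of mm10), upstream sequences from RefSeq (GRCm38.p6). Upstream sequences of 7 of the 9 genes were used. Alternatives covered the pseudocount, upper-quartile scaling, the filter, the fold threshold, summed lysozymes and each mouse left out. Named genes are the 9, Kit, Flt3, Dnmt3a, the 5 nearest to Lyz2 and genes that a sentence counts from the lists, the 3 highest and 3 widest of each first, with some listed genes not reported here. The genes and lists were chosen with earlier results of these data known. The software was Python 3.11.15, pandas 2.3.3, numpy 2.4.6 and Biopython 1.88.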

Additional observations from a re-analysis of the deposited data

How the results depend on the processing

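No paired analysis was possible because the series has 1 group. The number of genes at least 2-fold apart between mice was 5 of 8, against 8.57% of all expressed genes. With a mouse left out, it ranged from 1 of 8 (without mouse 3) to 4 of 9 (without mouse 2). The shares over all expressed genes were then 4.67% and 5.52%. Without mouse 1 the number was 3 of 8, against 2.96%. Without Lyz2 and Itgam, a choice added after seeing the data, it was 3 of 6, against 8.57%. The median SD of the genes, 0.63 with all mice, ranged from 0.41 (without mouse 1) to 0.66 (without mouse 2); a spread over 2 mice rests on fewer values. Without mouse 2, Fcgr1 reached a mean of 1 TPM and 9 genes were counted. With a mouse left out, 8 of 27 recomputed gene SDs and 10 of 42 list SDs changed by a factor of more than 1.5. Without mouse 3, the SD of Lyz2 was 0.86 and that of Itgam 0.54, against 1.32 and 1.05 with all mice. Without mouse 1, the SD of Emr1 was 0.005, against 0.41. With a pseudocount of 0.1, 1 of 9 recomputed gene levels (Fcgr1) moved by more than its spread. The counts of genes highest in mouse 3 or lowest in mouse 1 with a mouse left out, and the latter after scaling, were also added after seeing the data. Without the depth, the counting error of values near or below 1 TPM, such as those of Fcgr1, could not be estimated.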
